A study of Mus musculus with 22 samples.

Results

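The comparison is of Activin A gastruloids at 120 h made from mouse embryonic stem (mES) cells labelled Hox-/- with those made from wild-type (wt) cells, across every gene of the count table outside the 39 Hox genes and chromosome Y. Gastruloids are aggregates of mES cells that form tissues of the early embryo, and Activin A is a ligand that drives cells toward endoderm and mesoderm. Each genotype was sequenced as 2 poly(A)-selected libraries, so the comparison uses 4 of the series' 22 libraries. The same genotypes were also sequenced as Activin A gastruloids at 96 h, with 2 libraries each, and as endoderm cultures, grown in plates with Activin A and a GSK-3 inhibitor and collected at 120 h, with 3 libraries each. Both sets are used to show where the effect in 120 h gastruloids differs and where it has the same sign. The mES cells themselves, with 2 libraries of each genotype, are used only for runs of neighbouring genes. The series title describes the Hox-/- cells as lacking all Hox function, and their libraries carry the name BADC. The labels give the cells of all gastruloid libraries as mixed. They do not state how the alleles were made, how many clones stand behind a genotype, how many gastruloids were pooled, or the Activin A dose used for gastruloids. Genotype and cell line cannot be told apart, and nothing says that the 2 libraries of a group came from separate cultures, so p-values measure the spread between these libraries, which may be technical.

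Of 55141 genes in the table, 39 Hox genes and 1568 genes on chromosome Y were set aside, and 16791 of the remaining 53534 passed the filter on low counts. At 120 h the wild-type libraries had 9.25 and 9.11 M counts (M, mega) and those of Hox-/- 11.6 and 10.7 M. As a check of the labels, the 39 Hox genes summed to 1190 and 1167 CPM (counts scaled to a library of 1e+06 counts) in the wild-type libraries, and to 63.8 and 69.5 CPM in the Hox-/- libraries. Mitochondrial counts made up 0.597% to 0.672% of each library. Between the 2 libraries of a genotype, chi-square over its degrees of freedom, where counting error alone gives 1, was 1.37 for wild type and 1.57 for Hox-/-. In bulk RNA, fewer cells of a type and less RNA per cell cannot be told apart, and this holds for every level given here.

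Hox genes encode homeodomain transcription factors that give cells of the trunk and tail their position along the head-to-tail axis. In the embryo, the somites are cut off from the presomitic mesoderm by a segmentation clock, in which Notch signalling, Wnt and FGF act together and waves of Notch target genes pass through the tissue. Sonic hedgehog, made by the notochord and floor plate, patterns the neural tube and the somites around them. Epithelial gut endoderm arises beside these tissues under Nodal or Activin signalling.

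At 120 h 8450 of the 16791 genes were called, meaning an adjusted p under 0.05 in edgeR's quasi-likelihood test, which is 50.3%. The calls were 4194 higher in Hox-/- (25.0% of genes tested) and 4256 lower (25.3%), so a call alone is common here. The libraries of the genotypes did not overlap for 73.1% of genes tested, so separation alone is common too (26.2% higher and 46.9% lower in Hox-/-). Separation was judged on CPM, scaled by total counts alone, and the calls used another scaling. The 2 splits by direction are therefore not alike. Large changes were mostly decreases. Of calls of at least 2-fold, 1789 were lower in Hox-/- (10.7%) and 536 higher (3.19%), of at least 4-fold 860 lower and 140 higher, and of at least 8-fold 445 lower and 36 higher. The median log2 fold change over all genes tested was -0.02 with the scaling used here and -0.13 with scaling by total counts alone. Under total counts alone 34.7% of calls were higher in Hox-/- in place of 49.6%, so the split of all calls depends on the scaling, and small changes are read relative to that shift. Under total counts alone, too, calls of at least 2-fold were mostly lower, at 2033 lower and 447 higher. At the floor, meaning 3 counts or fewer in both libraries of a genotype, were 582 genes in Hox-/- alone and 168 in wild type alone. Where a genotype had no count at all, a fold is given as a lower bound against 3 counts per library, and where it had a few, with an exact 95% interval that covers counting error only. Below, CPM values and counts joined by "against" give wild type first, and a signed number alone in parentheses is edgeR's log2 fold change, Hox-/- over wild type.

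**Figure D1:**
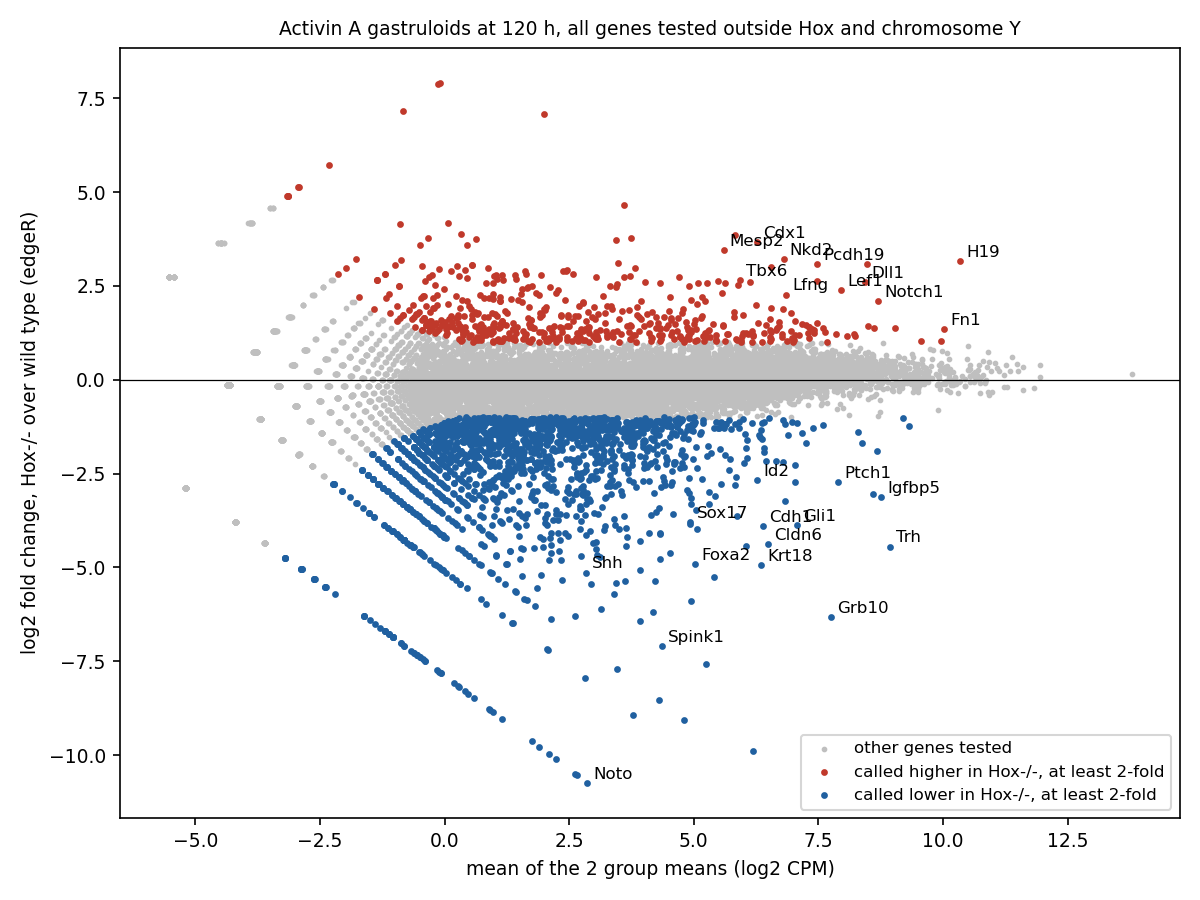
Each point is 1 of the genes tested at 120 h outside Hox and chromosome Y, with the mean of the 2 group means in log2 CPM on the x axis and edgeR's log2 fold change on the y axis; 43 genes with no count in the 4 libraries are not drawn, and the fitted folds along the diagonal edges belong to genes near 0 counts and depend on the prior count. The 1789 blue points (called lower, at least 2-fold) outnumber the 536 red ones (called higher) and reach further from 0.

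Epithelial genes were lower in Hox-/- gastruloids nearly without exception. Of 27 tested members of a list of epithelial adhesion, keratin and tight junction genes, 26 were called lower and none higher, with a median log2 fold change of -3.34 against -0.02 over all genes. Krt18 (ENSMUSG00000023043, chromosome 15, 102028180 to 102032027 in mm10), a keratin of simple epithelia, was at 157 and 161 CPM in wild type, against 5.17 and 4.40 CPM in Hox-/-. Both wild-type libraries lay far above both Hox-/- libraries, with a log2 fold change of -4.93 (SE 0.096, adjusted p 2.59e-40). Its partner keratin Krt8 was at 205 and 210 CPM against 19.9 and 20.8 CPM. Cdh1 (ENSMUSG00000000303, chromosome 8, 106603351 to 106670246), which encodes E-cadherin, was at 155 and 161 CPM in wild type, against 9.48 and 10.1 CPM in Hox-/- (log2 fold change -3.90, SE 0.0796, adjusted p 1.97e-39). Cldn6, a claudin of early epithelia, was at 173 and 171 CPM against 7.33 and 7.95 CPM (log2 fold change -4.38, SE 0.0932). Epcam, an epithelial adhesion molecule, was at 72.5 and 72.1 CPM against 7.67 and 5.80 CPM. None of these groups overlapped. Krt7 (log2 fold change -5.43), Ap1m2, a sorting adaptor of epithelia (-4.71), and Cldn7 (-4.42) fell further than the list's median. The uncalled member was Grhl3, at 5.83 against 4.06 CPM on average. In FPKM, which scales by transcript length, Cldn6, Krt18 and Krt8 stood at 106, 102 and 93.6 FPKM in wild type, and Cdh1 at 30.4 FPKM.

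Endoderm transcription factors were also lower, with 13 of 16 tested called lower, 1 higher and a median log2 fold change of -2.91. Foxa2 (ENSMUSG00000037025, chromosome 2, 148042877 to 148046969), a pioneer factor of endoderm and notochord, was at 65.0 and 61.3 CPM in wild type, against 1.98 and 1.87 CPM in Hox-/- (log2 fold change -4.92, SE 0.142, adjusted p 5.55e-33). Sox17, a definitive endoderm factor, was at 57.4 and 57.3 CPM against 4.65 and 2.90 CPM (log2 fold change -3.80). Wild-type gastruloids held these markers of endoderm, and in Hox-/- both genes stayed above the floor. Sox21 was lower (-4.51), and Hnf4a was 20.04-fold lower in CPM (66 against 4 counts, exact 95% interval 7.47 to 75.7). Mixl1, a factor of the primitive streak, was the member called higher, at 6.7 against 15.3 CPM on average (log2 fold change 1.31). Gata6 and Prox1 were not called, at 21.3 against 16.9 CPM and 11.9 against 8.91 CPM. Of 16 tested genes for secreted and uptake proteins of visceral endoderm and liver, 12 were called lower and none higher, or 9 lower by DESeq2. In Hox-/- alone 6 of the 16 were at the floor. The median of -1.93 became -0.70 over the 3 genes with 10 counts in every library. The uncalled members included 1 at 14.7 against 13.5 CPM on average. Among the lower ones was Spink1, a secreted protease inhibitor, at 39.9 and 41.6 CPM against 0.345 and 0.187 CPM. Ttr, a thyroid hormone carrier, had no count in Hox-/- and was at least 13.7-fold lower, and Apoa1, an apolipoprotein, went from 7.35 and 4.61 CPM to 0 and 0.187 CPM.

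Genes of the embryo's anterior signalling centres were called lower in 10 of 10 cases, with a median log2 fold change of -2.197. The smallest of these changes was only -0.11. By DESeq2 or without the filter on low counts 9 were called lower and none higher. With offsets for GC content and length 9 were lower and 1 higher. Otx2, a homeodomain factor of the anterior embryo, was at 104 and 114 CPM in wild type, against 8.62 and 7.57 CPM in Hox-/-. The Wnt antagonists Dkk1 (56.1 and 57.0 CPM against 6.29 and 4.21 CPM) and Sfrp5 (43.0 and 45.3 CPM against 1.29 and 2.06 CPM) were lower with no overlap. Cer1, a secreted antagonist of Nodal and BMP, was at 108 and 107 CPM against 21.9 and 21.04 CPM. Hesx1, a forebrain and pituitary factor, was at 6.05 and 4.39 CPM against 0 and 0.187 CPM. Otx2 overlaps an antisense gene, so its counts are less certain, as for any gene below that overlaps another, because no source used here states whether the counting used strand.

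Of 13 genes of the node and notochord, 10 were called lower, 1 higher, and 2 were not called. Noto (ENSMUSG00000068302, chromosome 6, 85423886 to 85428877), a homeodomain factor of the notochord, was at 15.5 and 13.5 CPM in wild type and had no count in either Hox-/- library, which makes it at least 53.7-fold lower. Pkd1l1, a channel gene of the node, was at 62.4 and 59.3 CPM against 0.690 and 1.22 CPM (log2 fold change -5.89). Chrd, a BMP antagonist, was at 61.8 and 59.7 CPM against 5.34 and 4.86 CPM. T, which encodes brachyury and is expressed in both the notochord and the tail bud, changed much less, from 296 and 313 CPM to 168 and 161 CPM (log2 fold change -0.78, SE 0.0463). Nodal was the member called higher, at 41.8 and 41.8 CPM against 69.7 and 76.1 CPM (log2 fold change 0.91). The summed CPM of the list was 620 and 624 in wild type and 280 and 279 in Hox-/-.

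In the hedgehog pathway list 9 of 16 tested members were called lower and 5 higher, with a median of -0.50. Shh (chromosome 5, 28456815 to 28467256), the ligand of notochord and floor plate, was at 14.5 and 13.4 CPM in wild type, against 0.259 and 0.468 CPM in Hox-/- (log2 fold change -5.14, SE 0.313, adjusted p 1.49e-19). Gli1 (ENSMUSG00000025407, chromosome 10, 127329882 to 127341974), a transcription factor and direct target of the pathway, was at 253 and 254 CPM against 14.6 and 17.5 CPM (log2 fold change -3.88, SE 0.0714, adjusted p 2.53e-41). Ptch1, the receptor and also a target, was at 426 and 411 CPM against 62.0 and 55.5 CPM (log2 fold change -2.72, SE 0.0513). Hhip, a target that binds the ligand, was at 11.0 and 9.22 CPM against 0.690 and 0.842 CPM. In each of these genes the genotypes were far apart and did not overlap. Foxf1, a forkhead target of the pathway, was higher instead, at 15.7 and 14.3 CPM against 32.2 and 31.5 CPM (1.20, SE 0.109). The other components moved less: Gli3, often a repressor, was higher (0.80), Sufu and Disp1 were higher (0.33 and 0.58), and the transducer Smo was not called (0.06). Shh and Gli1 overlap other annotated genes.

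Most genes of the Notch list were higher in Hox-/- gastruloids. Of 23 tested members of the list, which joins the Notch pathway with the segmentation clock, 15 were called higher and 6 lower, with a median log2 fold change of 0.47. The summed CPM of the list was 1308 and 1256 in wild type and 3129 and 3074 in Hox-/-. The promoters below, from RefSeq (GRCm38.p6), belong to the 3 genes of the list with the smallest p that have 1 promoter entry, and to the clock gene Hes7, chosen after its match was seen. They are shown because Notch acts on its targets through the DNA-binding factor Rbpj, whose core motif TGGGAA was searched on both strands, from 250 bases before to 50 bases after each start. Each line gives 200 bases, 5′ to 3′ on the gene's strand, ending 50 bases before the annotated start, with matches in capitals (TTCCCA is the motif on the other strand).
Nrarp, chr2:25180508-25180707, plus strand: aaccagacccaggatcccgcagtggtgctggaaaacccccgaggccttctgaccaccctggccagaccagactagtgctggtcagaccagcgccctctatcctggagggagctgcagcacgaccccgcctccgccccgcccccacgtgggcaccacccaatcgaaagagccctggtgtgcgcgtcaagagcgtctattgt
Notch1, chr2:26503873-26504072, minus strand: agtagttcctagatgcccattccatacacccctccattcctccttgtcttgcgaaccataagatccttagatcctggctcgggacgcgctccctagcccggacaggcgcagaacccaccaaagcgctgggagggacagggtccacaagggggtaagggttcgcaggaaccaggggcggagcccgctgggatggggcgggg
Lfng, chr5:140607091-140607290, plus strand: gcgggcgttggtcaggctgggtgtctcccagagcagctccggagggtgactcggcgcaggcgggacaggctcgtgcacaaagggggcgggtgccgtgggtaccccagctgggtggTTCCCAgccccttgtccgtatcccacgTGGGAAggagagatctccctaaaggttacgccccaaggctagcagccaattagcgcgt
Hes7, chr11:69120203-69120402, plus strand: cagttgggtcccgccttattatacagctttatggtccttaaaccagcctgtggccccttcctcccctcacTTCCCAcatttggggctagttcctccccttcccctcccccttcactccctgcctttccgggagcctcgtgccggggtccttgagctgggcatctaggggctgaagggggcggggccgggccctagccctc
The Lfng stretch held 2 matches, beginning 135 and 108 bases before the start, and the Hes7 stretch held 1, beginning 180 bases before it. Nrarp and Notch1 held none in this window. Of the 21 called genes of the list, 17 matched an entry of the table, and some of these had more than 1 promoter entry. In 4 of 13 genes that were higher and 1 of 4 that were lower, at least 1 entry held the motif. Of all 32851 promoter entries, counted singly, 25.6% held it, so that share is per entry and not per gene.

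Among ligands and receptors, Dll1 (ENSMUSG00000014773, chromosome 17, 15367354 to 15376872), the ligand of the presomitic mesoderm, was at 102 and 105 CPM in wild type, against 586 and 587 CPM in Hox-/- (log2 fold change 2.61, SE 0.0478, adjusted p 2.07e-41). The receptor Notch1 (chromosome 2, 26457903 to 26516663) was at 176 and 159 CPM against 695 and 636 CPM (2.10, SE 0.0484, adjusted p 3.61e-37). Both rose with no overlap between genotypes, and both overlap other annotated genes. Jag2, another ligand, was lower (-0.94), and Dll4 was not called, at 1.47 against 1.31 CPM. Among modulators and targets, Nrarp, a target that limits Notch activity, was at 52.7 and 53.1 CPM against 296 and 310 CPM (2.63, SE 0.052). Lfng, a glycosyltransferase whose expression cycles with the clock, was at 43.3 and 41.6 CPM against 199 and 180 CPM (2.27, SE 0.0646). Heyl, a repressor downstream of Notch, was at 13.5 and 13.6 CPM against 58.0 and 58.4 CPM (2.21), and the clock repressor Hes7 was at 26.7 and 28.3 CPM against 68.9 and 68.7 CPM (1.43). The related fringe genes Mfng (-1.35) and Rfng (-0.48) and the target Hey2 (-0.89) were lower, and Hes5 was not called (-0.22).

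**Figure D2:**
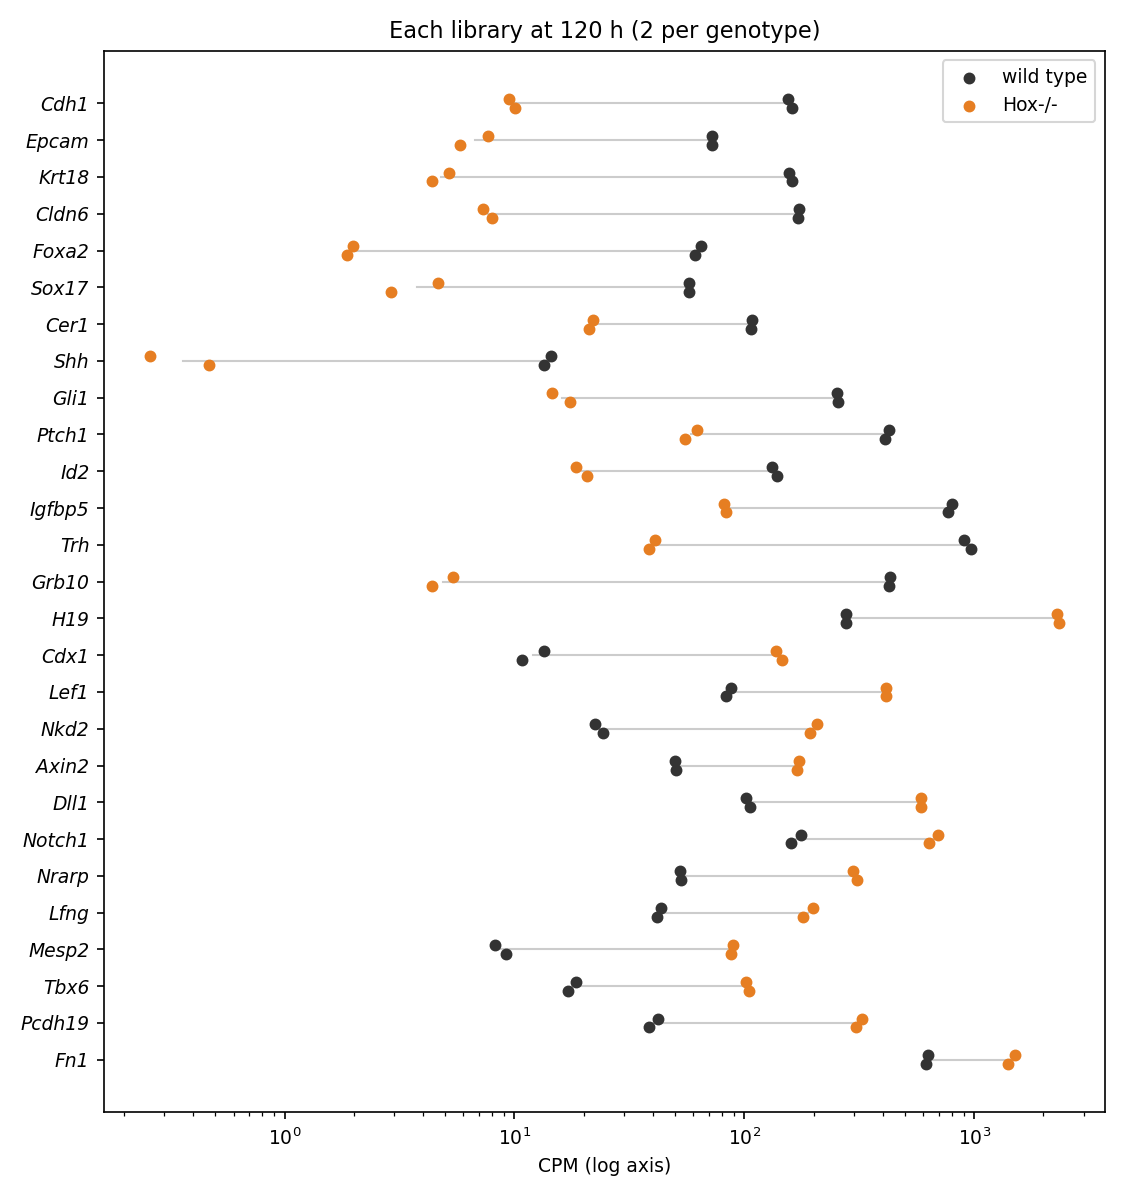
The CPM of 27 genes in each 120 h library, on a log axis, with black points for the 2 wild-type and orange points for the 2 Hox-/- libraries, and a grey line between the group means. Genes from Cdh1 to Grb10 were lower in Hox-/- (Krt18 at 157 and 161 CPM against 5.17 and 4.40 CPM) and those from H19 to Fn1 higher, and the 2 libraries of a genotype lie close together.

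Presomitic and somite genes were mostly higher, with 17 of 26 tested called higher, 6 lower and a median log2 fold change of 0.76. Mesp2 (ENSMUSG00000030543, chromosome 7, 79810727 to 79813439), which sets the next segment boundary, was at 8.22 and 9.22 CPM in wild type, against 89.0 and 87.3 CPM in Hox-/- (3.45, SE 0.0972, adjusted p 2.33e-33). Its neighbour Mesp1, a factor of early mesoderm, was at 2.702 and 2.196 CPM against 18.8 and 20.9 CPM (3.12). Tbx6, a master factor of presomitic mesoderm, was at 18.5 and 17.1 CPM against 102 and 105 CPM (2.65, SE 0.0849). Pcdh19, a protocadherin, was at 42.2 and 38.3 CPM against 325 and 307 CPM (3.09), and Aldh1a2, which makes retinoic acid in the somites, at 129 and 114 CPM against 273 and 273 CPM (1.27). The genotypes did not overlap in any of these genes. Genes of the sclerotome, the ventral part of the somite, were among the 6 lower members: Pax9 was at 10.2 and 8.23 CPM against 0.259 and 0.748 CPM (-4.09), and Pax1 at 1.84 and 1.10 CPM against 0.0862 and 0 CPM. Uncx, of the posterior half-somite, and Meox2 were not called, at 11.5 against 11.2 CPM and 3.64 against 2.23 CPM.

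Caudal progenitor genes, expressed where the trunk and tail elongate, were higher in 12 of 20 cases and lower in 3 (5 under total counts alone), with a median of 0.59. Cdx1 (ENSMUSG00000024619, chromosome 18, 61018862 to 61036199), a homeodomain activator of Hox genes, was at 13.4 and 10.8 CPM in wild type, against 137 and 146 CPM in Hox-/- (3.66, SE 0.0911, adjusted p 1e-35). Its relative Cdx4 was at 3.24 and 3.73 CPM against 15.8 and 20.4 CPM (2.48), and Fgf17 at 12.9 and 11.1 CPM against 34.3 and 34.7 CPM (1.64). Cyp26a1, which degrades retinoic acid at the tail end, was lower instead, at 136 and 134 CPM against 33.8 and 36.8 CPM (-1.82, SE 0.071), and so were Epha5 (-1.14) and T. Cdx1 and the Wnt feedback gene Apcdd1 (2.53) lie in a stretch of chromosome 18 where most genes were higher in Hox-/- in gastruloids, and whose median was also raised in endoderm cultures and mES cells. Its values are given among the other observations, and the part of that stretch in their change was not tested.

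Wnt ligands were called higher in 12 of 19 cases and lower in 4, with a median of 1.19, but most were at low levels. Wnt4 was at 12.4 and 12.2 CPM against 36.2 and 32.8 CPM (1.60), Wnt6 at 0.324 and 1.21 CPM against 4.48 and 6.17 CPM (2.89), and Wnt7b at 0.324 and 0.329 CPM against 2.84 and 2.34 CPM. Wnt8a (-0.88) and Wnt10b (-1.42) were lower, the latter no longer called by DESeq2 (adjusted p 0.0954) or without Hox-/- replicate 1 (-0.95, adjusted p 0.182). Among 23 tested targets and antagonists the calls were even, at 8 higher and 8 lower. Of the higher ones, Nkd2 went from 22.5 and 24.2 CPM to 207 and 193 CPM (3.21, SE 0.0666), Lef1, a transcription factor of the pathway, from 87.9 and 83.4 CPM to 415 and 412 CPM (2.38, SE 0.0473), Axin2 from 50.05 and 50.6 CPM to 173 and 170 CPM (1.88), and Notum from 3.9995 and 4.83 CPM to 15.9 and 15.8 CPM (1.96). The lower ones included the secreted antagonists Dkk1, Dkk3 (-1.80) and Sfrp5 and the receptor Lgr5 (-2.49).

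FGF ligands and receptors moved in both directions. Of 24 members, 12 were called higher and 8 lower, with a median of 0.17. The ligands Fgf9 (1.84 and 2.74 CPM against 14.7 and 13.7 CPM, 2.74), Fgf18 (6.16 and 6.48 CPM against 22.8 and 22.4 CPM, 1.95) and Fgf4 (1.74) and the receptor Fgfr1 (315 and 301 CPM against 755 and 726 CPM, 1.38) were higher. The ligand Fgf5 (36.5 and 35.6 CPM against 4.74 and 6.36 CPM, -2.60) and the receptors Fgfr3 (-1.66) and Fgfr4 (-4.78) were lower. Etv4 and Etv5, transcriptional readouts of FGF signalling, were not called (0.03 and 0.03). In the retinoic acid list 9 of 17 were called lower and 6 higher, with a median of -0.66. Rarg, a receptor, rose from 47.2 and 47.2 CPM to 102 and 93.9 CPM (1.165), whereas the nuclear receptor Nr2f1 fell (-1.76).

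In the Nodal and Activin list 9 of 19 were called higher and 7 lower, with a median of 0.04. Under total counts alone 6 were higher and 8 lower, with a median of -0.07, and by limma on FPKM 5 were higher and 6 lower of 18. Lefty2, a feedback inhibitor, was at 244 and 237 CPM in wild type, against 408 and 400 CPM in Hox-/- (0.86), and Fst, which binds Activin, at 149 and 141 CPM against 30.8 and 28.6 CPM (-2.17, SE 0.071). Cfc1, a coreceptor of Nodal, was at 16.8 and 17.8 CPM against 1.03 and 0.935 CPM (-4.01). BMP pathway genes were lower in 12 of 22 cases and higher in 5, with a median of -0.62, and 3 were higher without Hox-/- replicate 1 or under total counts alone. The 4 Id genes, which encode inhibitors of basic helix-loop-helix factors and are common targets of BMP, were all called lower: Id2 was at 131 and 139 CPM against 18.5 and 20.7 CPM (-2.68, SE 0.0737), Id1 at 69.3 and 73.2 CPM against 28.6 and 24.9 CPM (-1.30), Id3 at 155 and 153 CPM against 67.2 and 67.2 CPM (-1.09), and Id4 changed by -2.32. The ligand Bmp2 was lower as well (-1.51), and Bmp4 was not called (0.27). Msx2, another BMP target, was higher (2.31), at 1.69 against 7.79 CPM.

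**Figure D3:**
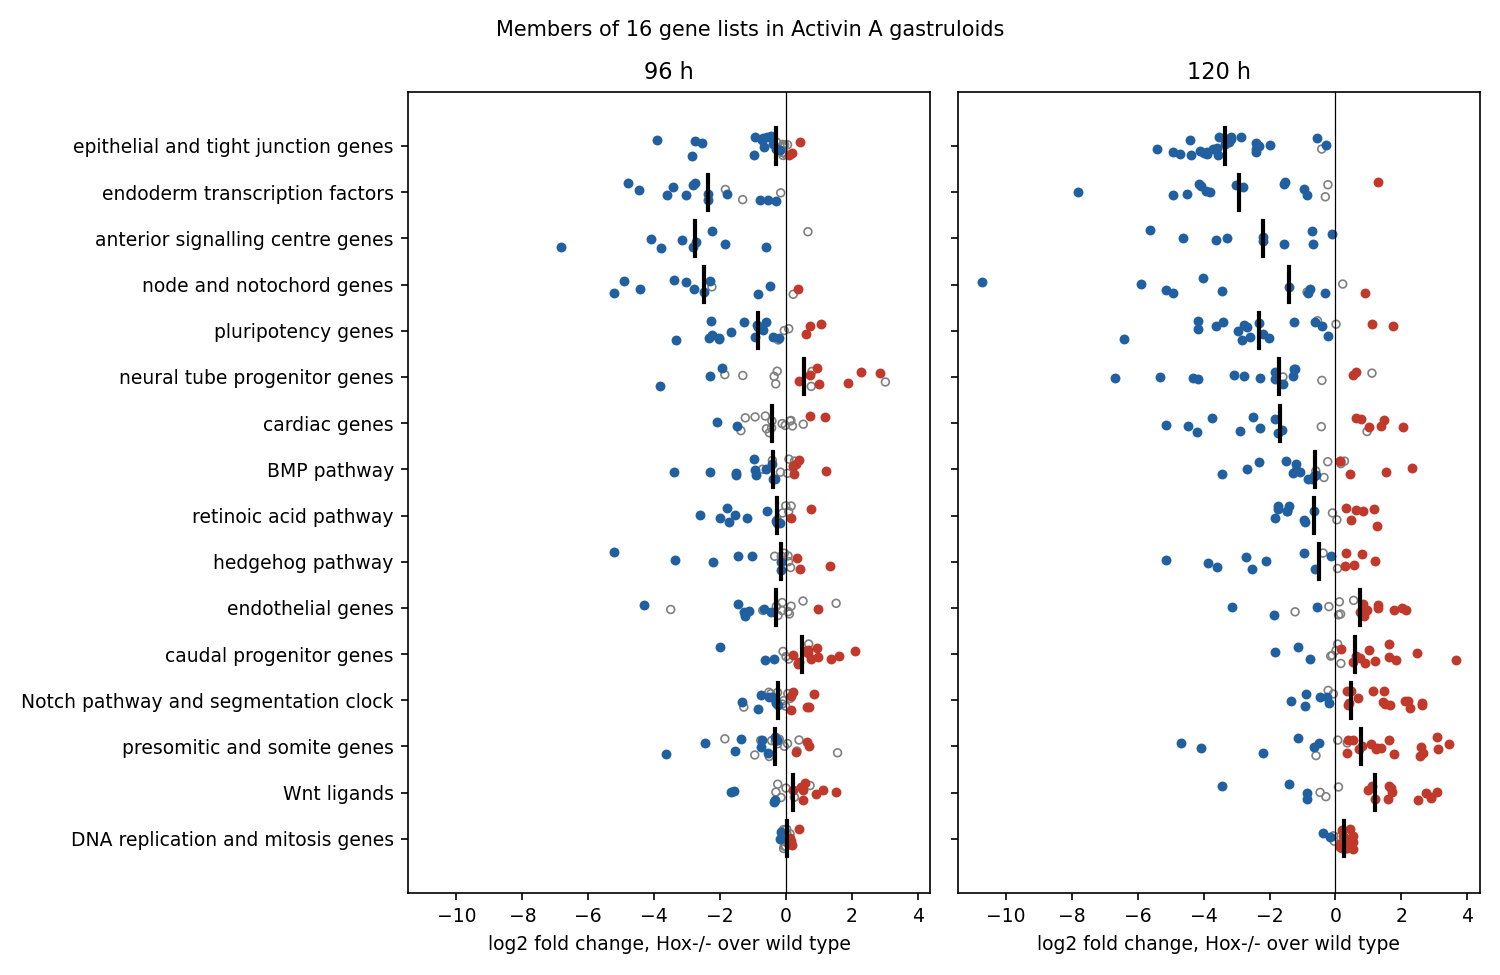
Log2 fold changes of the tested members of 16 lists at 96 h (left) and 120 h (right), each point a gene, filled red where called higher, blue where called lower and open where not called, with a black bar at the median. The epithelial list moved from a median of -0.29 at 96 h to -3.34 at 120 h, and the Notch list from -0.25 to 0.47.

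Neural tube progenitor genes were lower in 13 of 18 tested cases and higher in 2, with a median of -1.71. The ventral progenitor factors Olig2 (44.9-fold lower in CPM, 185 against 5 counts, exact 95% interval 18.9 to 140.0) and Nkx6-1 (14.5 and 16.9 CPM against 0.948 and 0.468 CPM, -4.32), both of which respond to Shh in the embryo, fell with Pax6 (11.6 and 9.55 CPM against 0.517 and 0.561 CPM, -4.16). Of 18 tested neuronal genes 7 were lower and 4 higher, and of 15 brain regional genes 10 were lower and 3 higher. The 3 higher calls became 1 without Hox-/- replicate 2 or without wild-type replicate 2, and the 2 higher neural tube calls became 1 without either of the same libraries. Six3, a forebrain factor, was under 3 CPM in wild type and called lower, and Gbx2, of the anterior hindbrain and the caudal epiblast, was higher, at 19.02 and 21.3 CPM against 40.7 and 38.7 CPM (1.09). Pluripotency genes were lower in 17 of 21 cases and higher in 2, with a median of -2.32, or -1.86 once genes at the floor take the bounding value. The size of that median depends on genes at low levels. It was -0.62 over the 12 genes with 10 counts in every library. By limma over 19 genes it was -0.66 on log2(FPKM + 1) and -1.75 on log2(FPKM + 0.1). Dppa5a was at 31.8 and 33.8 CPM against 2.16 and 2.81 CPM (-3.62), Utf1 changed by -4.17, and Zfp42 went from 3.78 and 3.51 CPM to 0.172 and 0.187 CPM. Fgf4 and Klf4 (1.11) were the 2 members called higher.

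Among heart and vessel genes the direction was mixed. Of 18 tested cardiac genes 10 were called lower and 6 higher, with a median of -1.67. The direction of that median turned where fewer of the genes were tested, to 0.43 over 11 genes by limma on log2(FPKM + 1), 0.58 over 11 by limma on log2(FPKM + 0.1) and 0.73 over the 3 genes with 10 counts in every library. The contractile genes Myl3 (8.65 and 7.80 CPM against 0.0862 and 0.748 CPM, -4.21) and Myh7 (6.27 and 4.94 CPM against 0.345 and 0.0935 CPM, -4.49) were lower, while Myl4 (2.07) and Tnni1 (1.40) were higher, all under 10 CPM. Of 19 tested endothelial genes 9 were higher and 3 lower, with a median of 0.75, and 6 were higher without wild-type replicate 2. By limma on log2(FPKM + 1), which tested 11 of them, the median was 0.05, with 4 higher and 2 lower. Robo4 (2.14), Tie1 (1.77) and Cdh5 (1.29) were higher but under 4 CPM, and Flt1, a receptor of Vegfa, was lower, at 56.5 and 55.4 CPM against 6.21 and 5.42 CPM (-3.15). Fli1, counted among the 9, begins the chromosome 9 window given among the other observations. The median of that window was also raised in endoderm cultures and mES cells, and its part in the change was not tested. Only 6 of 22 blood genes were tested, with the globins and Gata1 below the filter, and Lmo2 rose from 13.3 and 14.8 CPM to 53.5 and 52.4 CPM (2.02).

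The remaining cell type lists were split or thin. Called higher and lower were 6 and 5 of 16 tested genes of lateral plate and limb bud (5 and 7 under total counts alone), 4 and 7 of 14 of intermediate mesoderm and kidney, 5 and 9 of 16 of neural crest and craniofacial mesenchyme, 1 and 3 of 8 of surface ectoderm (2 and 4 without wild-type replicate 1), 2 and 5 of 11 of germ cells, and 0 and 1 of 4 of trophoblast. In the germ cell list the 5 lower calls became 3 without Hox-/- replicate 1 or without wild-type replicate 2. The stress and immediate early list had 2 higher and 4 lower of 12, and 2 lower without wild-type replicate 1.

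Matrix and mesenchymal genes moved in both directions. Of 17 tested mesenchymal genes 10 were higher and 3 lower, with a median of 0.42, and of 27 tested matrix genes 9 were higher and 13 lower. Snai1, a repressor of Cdh1, was at 27.9 and 28.1 CPM in wild type, against 84.6 and 82.1 CPM in Hox-/- (1.69, SE 0.0735), and Zeb1, with the same known role, at 33.5 and 34.9 CPM against 68.8 and 59.6 CPM (1.02). Snai2 went the other way (-1.96), at 4.75 against 1.12 CPM. Fibronectin, encoded by Fn1, rose from 629 and 615 CPM to 1508 and 1406 CPM (1.34, SE 0.0418), and Lama1, a laminin chain, from 60.5 and 58.8 CPM to 154 and 146 CPM (1.44). The collagens Col1a2 (-2.005) and Col3a1 (-1.57) were lower.

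Single imprinted genes changed strongly in both directions. Grb10 (ENSMUSG00000020176, chromosome 11, 11930508 to 12038683), an imprinted adaptor that restrains growth, was at 430 and 426 CPM in wild type, against 5.43 and 4.40 CPM in Hox-/- (-6.33, SE 0.0754, adjusted p 2.8e-49). H19 (chromosome 7, 142575529 to 142578143), an imprinted noncoding RNA, was at 277 and 277 CPM against 2279 and 2342 CPM (3.17, SE 0.0471, adjusted p 3.17e-45). Igf2, which shares an imprinted domain with H19, changed by 0.40. Over the imprinted list 14 of 37 tested were higher and 17 lower with a median of 0.005. That median was -0.11 under total counts alone and -0.09 without either Hox-/- library, so its sign is not settled. Trh, a neuropeptide precursor, was at 907 and 966 CPM against 41.0 and 38.5 CPM (-4.44, SE 0.0655), and Igfbp5, which binds insulin-like growth factors, at 797 and 768 CPM against 81.7 and 83.6 CPM (-3.13, SE 0.0484). Of 12 tested genes of insulin-like growth factor signalling 5 were higher and 5 lower. Emb, a membrane glycoprotein, was at 703 and 683 CPM against 74.8 and 80.2 CPM (-3.05).

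Genes for glucose uptake and for proliferation also differed. The glucose transporters Slc2a1 and Slc2a3 were at 909 and 937 CPM against 369 and 356 CPM (-1.24) and at 650 and 661 CPM against 164 and 162 CPM (-1.89), and Vegfa, a hypoxia-response gene, at 273 and 281 CPM against 113 and 110 CPM (-1.20). Among glycolytic enzymes, Eno1 (0.55) and Pkm (0.44) were higher, and the whole list had 9 of 26 higher and 8 lower, or 9 and 11 under total counts alone. Of 25 genes of DNA replication and mitosis, 20 were called higher and 2 lower, with a median of 0.27, and 15 higher and 4 lower under total counts alone. The 2 lower calls became 1 without Hox-/- replicate 1 or without either wild-type library. Mcm6, of the replicative helicase, was at 247 and 241 CPM against 327 and 329 CPM (0.54). Of 18 tested p53 targets 9 were higher and 5 lower, or 3 lower without wild-type replicate 1. Of 11 mitochondrially encoded mRNAs 6 were higher and none lower, or 3 under total counts alone, 2 by DESeq2 and 1 by limma on FPKM. Cxcl12, a chemokine, was lower (190 and 190 CPM against 83.4 and 75.0 CPM, -1.15), as were 3 others of its list of 6, with none higher.

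Genes inside and beside the Hox clusters were also examined. Of the 10 largest decreases by the naming rule, 6 were noncoding RNAs inside the Hox clusters: Haglr, Hotairm1, Hoxaas2, Hoxaas3, Hoxb3os and Hoxb5os. Hoxb3os, for example, was at 137 and 153 CPM against 0.0862 and 0.187 CPM. In the deposited FPKM values, however, it was at 0 FPKM on average in both genotypes, so its decrease rests on the counts alone. All 6 overlap exons of Hox genes. Of 18 tested neighbours of the clusters 11 were higher and 1 lower, with a median of 0.28, or 9 and 3 under total counts alone, and none was lower without wild-type replicate 2. Evx2, next to the Hoxd cluster, had 0.108 and 0 CPM in wild type, against 8.02 and 7.86 CPM in Hox-/-, which is 1 count against 177. Of 9 Hox cofactors 6 were higher and 2 lower. Among them, Pbx4 fell (-1.76).

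The other members of the 10 largest changes had no list. Lower were Sec14l4, a lipid-binding protein gene, at 11.5 and 13.2 CPM with no count in Hox-/-, and Akr1c19, at 15.9 and 12.4 CPM against 0 and 0.0935 CPM. Higher were the potassium channel gene Kcnk3 (0.757 and 1.21 CPM against 23.7 and 22.7 CPM, 4.67), the matrix protein gene Sned1 (7.13 and 8.45 CPM against 105 and 106 CPM, 3.87), the acyltransferase gene Gpat3 (3.77) and the protease gene Tll2 (3.72). Rnf213 was higher by 3.00. Among the genes with the highest CPM, Eef1a1, Rack1 and Hsp90ab1 changed by 0.14, -0.23 and 0.40, and Eef1a1 was not called under total counts alone.

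The same contrast at 96 h shows which of these differences were already present. There 38.8% of the genes tested were called, and the difference between the 2 genotype effects was called for 6533 genes, which is 38.9%, with 18.7% of genes tested shifted up and 20.2% shifted down. The 96 h libraries were deeper, at 15.0 to 25.8 M counts, so time and depth go together. Of 3947 genes called at both times, 2979 had the same sign. Already mostly lower at 96 h were endoderm transcription factors (13 of 16, median -2.38), anterior signalling centre genes (9 of 10, -2.77) and node and notochord genes (10 of 13, -2.50). Called higher there were 0, 0 and 1 of these. Caudal progenitor genes were already mostly higher (13 of 20, and 3 lower). Neural tube progenitor genes had a median of 0.56 at 96 h, with 7 of 18 higher and 3 lower. The epithelial genes changed between the times: 23 of 27 had an effect that was lower at 120 h than at 96 h by the test of that difference, and none a higher one. Cdh1 stood at 419 CPM in wild type, against 311 CPM in Hox-/- at 96 h on average, a log2 fold change of -0.38, and the difference between the times was -3.52 (SE 0.0921, adjusted p 1.07e-33). For Krt18 the 96 h levels were 48.9 and 28.9 CPM, and the difference was -4.23 (SE 0.129). Of 23 Notch list genes 16 had an effect shifted up and 2 down. Notch1 stood at 81.7 and 87.8 CPM at 96 h (difference 1.94, SE 0.0719), Dll1, already called higher there (0.71), at 45.1 and 70.3 CPM (1.91, SE 0.0732) and Lfng at 9.61 and 7.66 CPM (2.52, SE 0.136). Genes with a call of opposite sign at 96 h included Id2 (0.25 at 96 h), Fst (0.53) and Slc2a3 (0.27), which were lower at 120 h, and Lefty2 (-1.52), Aldh1a2 (-1.55) and Tbx6 (-0.27), which were higher at 120 h. Foxa2, Shh and Gli1 were called lower in Hox-/- at both times. Foxa2 was at 80.8 CPM in wild type, against 9.6 CPM in Hox-/- at 96 h, Shh at 2.39 and 0.0568 CPM, and Gli1 at 29.9 and 2.71 CPM, and the difference between the times was not called for Shh (0.08, adjusted p 0.903). In Hox-/- at 96 h Shh was at the floor, as 3 counts equal 0.140 and 0.201 CPM in those libraries. The test therefore cannot say whether its effect was equal at the 2 times.

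**Figure D4:**
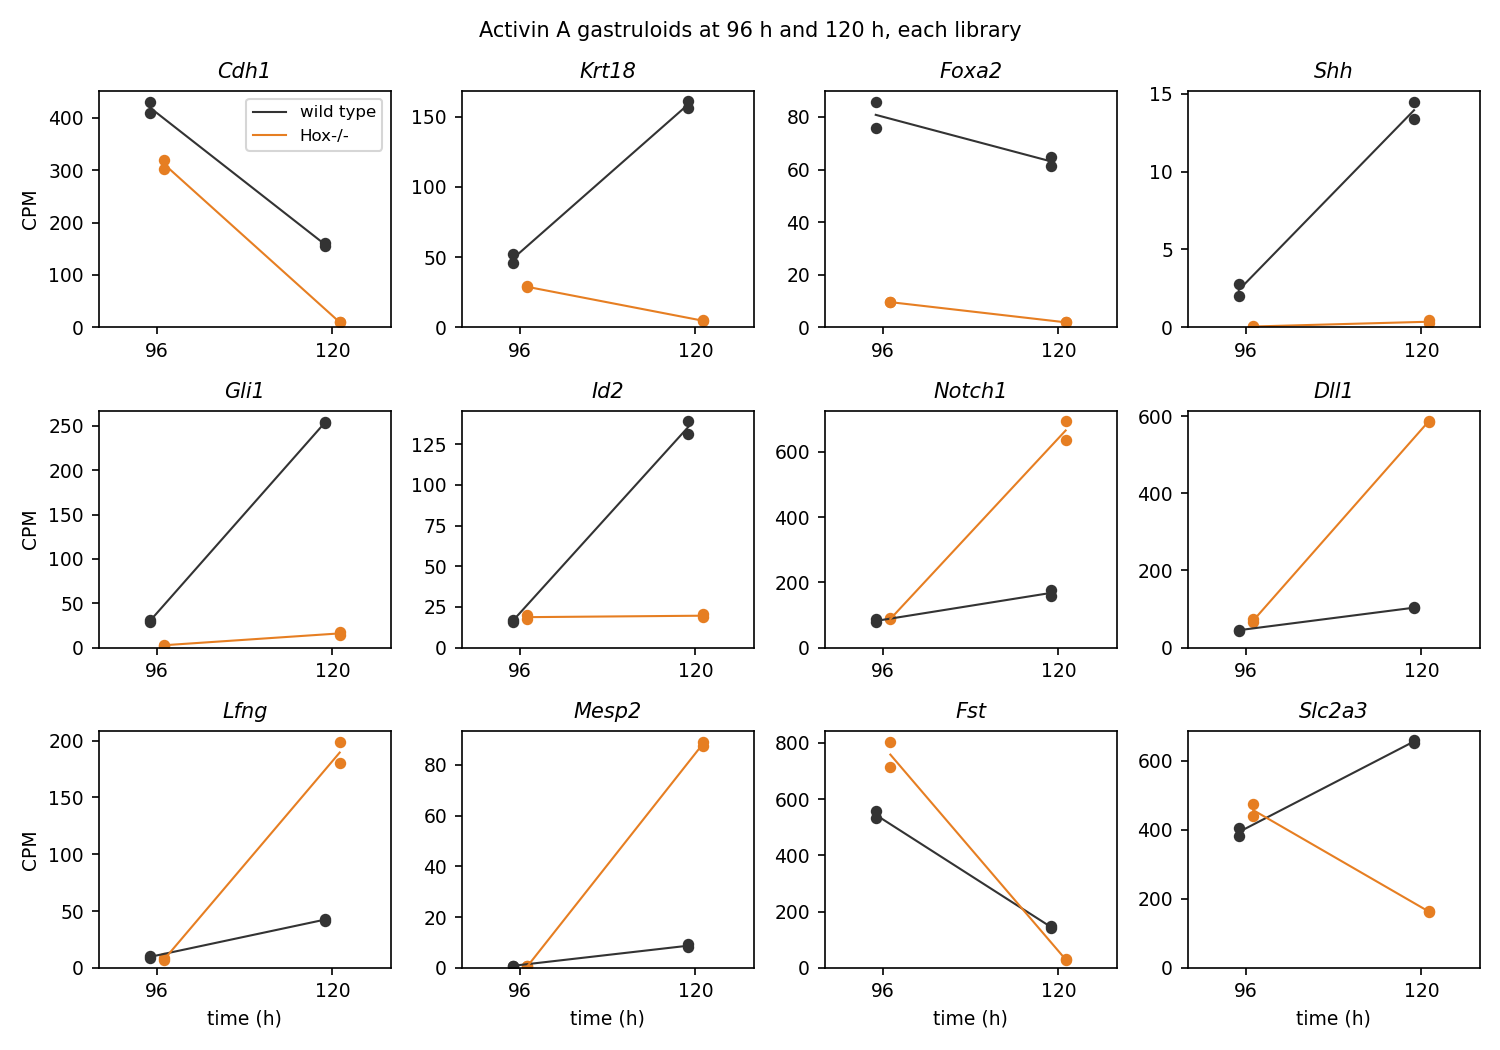
CPM of 12 genes in each Activin A gastruloid library at 96 h and 120 h, with wild type in black and Hox-/- in orange, points for libraries and lines joining group means. Cdh1 fell from 311 to 9.79 CPM on average in Hox-/- and from 419 to 158 CPM in wild type, while for Notch1, Dll1, Lfng and Mesp2 the genotypes lay further apart at 120 h than at 96 h.

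The endoderm cultures carry the same genotypes but were grown in plates, with a GSK-3 inhibitor, and were sequenced as separate libraries. There 45.8% of the genes tested were called, and a test of the difference between the cultures' genotype effects called 5494 of 16310 genes (33.7%), 17.3% with a higher effect in gastruloids and 16.4% with a lower one. The epithelial list had a median of -0.77 in endoderm cultures, and 26 of its genes had a lower effect in gastruloids and 1 a higher one. Of the Notch list 15 had a higher effect in gastruloids and 4 a lower one. Dll1 was lower in Hox-/- endoderm (-0.90) and Pcdh19 too (-1.43), whereas both were higher in gastruloids. The hedgehog targets Gli1 and Ptch1 were slightly higher in Hox-/- endoderm (0.56 and 0.31). Across 14506 genes tested in both settings, 4180 were called in both, 3256 of them with the same sign. Genes called with one sign in gastruloids at both times and in endoderm cultures numbered 855 higher and 829 lower, Grb10, Trh and H19 among them.

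Genes named beyond the naming rule, namely Krt8, Epcam, Sox17, Cer1, Hes7, Axin2, Fgfr1, Foxf1, Id1 and Id3, were chosen after their values were seen. The standard errors of the log2 fold changes of all genes named, those at the floor left out, ran from 0.0369 to 0.483 with a median of 0.112.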

How the data were processed

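RNA was measured in 8 Activin A gastruloid libraries, 6 endoderm culture libraries and 4 mES cell libraries, prepared with a stranded poly(A) kit, per the labels' protocols. The authors deposited whole-number read counts per gene and a table of FPKM values. Per the submitters' processing notes, cutadapt 1.16, STAR and Cufflinks 2.2.1 were used with mm10, and the counting tool and its use of strand are not given in the sources used here. Counts of the 8 Activin A libraries were fitted together, without a block, by edgeR 4.0.16 (R 4.3.3) with TMM scaling, filterByExpr (minimum count 10) and the quasi-likelihood test, so that groups share 1 estimate of spread. P-values were Benjamini-Hochberg adjusted over all genes tested, and standard errors are the log2 fold change over the square root of F. The contrast with endoderm cultures used a joint fit of 10 libraries, and the 4 mES cell libraries had a fit of their own. The deposited FPKM values served for levels per length and for limma 3.58.1 on log2(FPKM + 1) and log2(FPKM + 0.1), and DESeq2 1.42.0 was a further alternative. The edgeR step was tested on simulated data.

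The comparison and its gene lists were chosen with earlier results of these data known. Genes were named by rule, leaving out predicted symbols: in each direction the 10 largest changes at 10 CPM or more in both libraries of the higher group, the 10 smallest p-values of at least 2-fold, up to 4 called members per list, 5 with an opposite call at 96 h, then up to 2 uncalled members per list and the 3 highest in CPM per group. Not all of them are printed, and some are not reported here. Every column of per-sample values used was mapped to a sample, and 0 were left unmapped. Replicate numbers did not pair the samples. Positions of 14236 of 16820 tested genes (84.6%) equal those of GENCODE M21 on GRCm38.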

Additional observations from a re-analysis of the deposited data

Results flagged for a closer look

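The genotype effect differed between 120 h and 96 h for 6533 genes by edgeR's test of the difference itself. Of the genes named above, 20 were called with opposite signs at the 2 times and also in that test. The difference of log2 fold changes, 120 h minus 96 h, is given in parentheses for each. Its standard error ran from 0.0586 for Slc2a1 to 0.978 for Col3a1, with Tnni1 (0.763) and Snai2 (0.445) next widest. Those lower in Hox-/- at 120 h and higher at 96 h were Id2 (-2.93), Fst (-2.71), Col1a2 (-3.28), Snai2 (-3.11), Slc2a3 (-2.16), Col3a1 (-4.93), Id1 (-1.70), Slc2a1 (-1.67) and T (-1.13). Those higher at 120 h and lower at 96 h were Sufu (0.48), Igf2 (1.49), Lefty2 (2.38), Nodal (1.40), Klf4 (2.05), Aldh1a2 (2.82), Mixl1 (1.61), Tnni1 (3.50), Wnt4 (3.27), Nrarp (2.94) and Tbx6 (2.92).

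The genotype effect differed between 120 h gastruloids and endoderm cultures for 5494 genes by the same kind of test. Of the genes named above, 29 were called with opposite signs in the 2 settings, with the difference, gastruloids minus endoderm cultures, in parentheses. Those lower in Hox-/- gastruloids and higher in Hox-/- endoderm were Shh (-6.61), Nkx6-1 (-5.24), Gli1 (-4.42), Hhip (-4.38), Dkk1 (-3.52), Igfbp5 (-5.81), Ptch1 (-3.01), Id2 (-3.16), Dkk3 (-2.66), Bmp2 (-1.86), Cxcl12 (-2.20), Hey2 (-1.66) and T (-1.21). Those higher in Hox-/- gastruloids and lower in Hox-/- endoderm were Eef1a1 (0.42), Hsp90ab1 (0.56), Lefty2 (2.14), Nodal (1.53), Gbx2 (1.79), Klf4 (2.82), Aldh1a2 (2.36), Lama1 (2.21), Wnt4 (1.94), Fgf4 (4.84), Dll1 (3.52), Nrarp (3.06), Tbx6 (3.78), Fgf9 (3.51), Pcdh19 (4.53) and Nkd2 (3.52). The standard errors of these differences ran from 0.0694 for Eef1a1 to 0.455 for Shh. The part of culture form and medium in these differences was not tested.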

How the results depend on the processing

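The count of genes called at 120 h was 6805 by DESeq2, 6341 and 6291 by limma on log2(FPKM + 1) and log2(FPKM + 0.1), and 7202 to 7386 when 1 library was left out at a time, the lone library being assumed to vary like the other groups. Leaving out 1 library gave 5480 to 6315 genes for the difference between times and 4298 to 5631 for the difference from endoderm cultures. The difference between times was called for 4239 genes by limma on log2(FPKM + 0.1), which tests fewer genes, and the cause was not tested further. With at least 10 counts in every library, 264 genes were higher and 797 lower by at least 2-fold, since genes near 0 in 1 genotype are left out. By limma on log2(FPKM + 1) these counts were 216 and 668, and on log2(FPKM + 0.1) 1131 were lower. Under total counts alone the difference between times was higher for 2555 genes and lower for 4043, and that from endoderm cultures 1823 and 3691. With GC content and length offsets, an alternative added after seeing the data, 4675 were higher and 3816 lower at 120 h. The difference between times was higher for 3786 and lower for 2616 genes without a filter on low counts, and for 2521 and 1921 by limma on log2(FPKM + 1). The highest median over genes of an autosome or X was 0.052 and became -0.0537 under total counts alone. The median of the blood list became 0.0402 without Hox-/- replicate 2. Named genes were compared across another scaling (RLE), total counts alone, DESeq2, the replicate block, GC and length offsets, and 1 library left out. They were not compared under limma on FPKM or other filters on low counts. Of 153 genes named, 140 kept call and direction in all the settings compared. In these settings changes of sign were limited to uncalled genes. Dll4 went from -0.3893 to 0.2263 when 1 library was left out and was at 0.0163 with GC and length offsets. Hes5 was at 0.001 with those offsets. Under total counts alone Etv4 was at -0.0815, Etv5 at -0.0787, Smo at -0.0499 and Uncx at -0.0425. Etv4 went from -0.0075 to 0.0694 when 1 library was left out. With the replicate number as a block, 8470, 6549 and 5508 genes were called for the 3 comparisons and no named gene changed its call. The numbers did not pair the samples: deviations of same-numbered libraries correlated at 0.0406 at 120 h and -0.0812 at 96 h. At the depth of the 120 h libraries, genes at a few CPM carry the widest errors.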

Other observations

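Runs of neighbouring genes that differed at 120 h were compared with their values in the other cultures. Over 16390 overlapping windows of 20 neighbouring tested genes, the median log2 fold change at 120 h had a 1st percentile of -0.60 and a 99th of 0.37. The highest window (chromosome 1, 175662421 to 178939200 in mm10, from Opn3 to Kif26b) had 14 genes called higher and none lower, with a median of 0.83 at 120 h, 0.45 at 96 h, 0.66 in endoderm cultures and 0.71 in mES cells. The next (chromosome 18, 60813755 to 62961179 in mm10, from Tcof1 to Apcdd1), which holds Cdx1 and Apcdd1, had medians of 0.76 at 120 h, 0.66 at 96 h, 0.40 in endoderm cultures and 0.51 in mES cells. A window on chromosome 9, 32422204 to 36767679 in mm10, from Fli1 to Stt3a had 0.75 at 120 h, 0.59 at 96 h, 0.68 in endoderm cultures and 0.60 in mES cells. A window on chromosome 2, 57237678 to 61800376 in mm10, from Gpd2 to Psmd14 had 0.55 at 120 h, 0.44 at 96 h, 0.67 in endoderm cultures and 0.57 in mES cells. The next 4 highest windows, with medians of 0.47 to 0.50 at 120 h, had 0.0045 to 0.32 in endoderm cultures and -0.08 to 0.22 in mES cells. The 8 lowest windows had medians further from 0 at 120 h, from -1.86 to -0.88, with -0.40 to 0.24 at 96 h, -0.64 to 0.18 in endoderm cultures and -0.26 to 0.17 in mES cells. The lowest of them (chromosome 6, 49822710 to 52215076 in mm10, from Npy to 5730596B20Rik) ended inside the Hoxa cluster. The next lowest was at -1.18. The windows were picked for their value at 120 h, so that value is a description, and the values in the other cultures come from other libraries of the same cells.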
